A study of Homo sapiens with 24 samples.

Results

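The genes described here were chosen by gene name to cover chaperones and co-chaperones of the cytosol and the mitochondria. They are 72 of the 58051 genes in the count matrix. They comprise 8 HSP70 genes (HSPA), 3 HSP110 genes (HSPH1, HSPA4 and HSPA4L), 2 HSP90 genes, the mitochondrial pair HSPD1 and HSPE1 and 6 small heat shock protein genes (HSPB). The rest are 4 DNAJA, 9 DNAJB and 24 DNAJC genes, 8 subunit genes of the CCT chaperonin and 6 BAG genes. Classes follow gene names and not functions, so the small heat shock protein class holds every HSPB member, HSPB11 included. Location in the cell was not checked either, so some members may sit outside the cytosol and the mitochondria. The name rule left out HSPA5, HSPA13, DNAJB9, DNAJB11, DNAJC3 and DNAJC10, which are genes of the endoplasmic reticulum lumen, and also DNAJC6 and pseudogenes. Of 82 genes that matched by name, 10 had fewer than 50 reads over the 24 libraries and were left out. The nearest to that minimum were HSPA1A, outside it with 40 reads, and DNAJC5B, inside it with 147 reads. All 72 members passed the expression filter, although DNAJB8 would not have done so without the MS275 libraries, nor DNAJC5B without those of MS275 or of methylmercury. The CCT subunit gene TCP1 was not analysed here.

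The cells were neurons differentiated from LUHMES, a line of immortalised precursors from human midbrain, in which differentiation was started with tetracycline and cAMP. Cultures were exposed for 6 h to 5 µM MS275, 5 µM paraquat, 5 µM MPP, 2 µM ziram, 1 µM rotenone, 1 µM 6-HD, 0.5 µM methylmercury or the vehicle alone, 1% DMSO, with 3 libraries in each of the 8 groups. MS275 (entinostat) is an inhibitor of class I histone deacetylases, ziram a zinc dithiocarbamate fungicide, rotenone an inhibitor of mitochondrial complex I, MPP is 1-methyl-4-phenylpyridinium, and 6-HD is the labels' name for hydroxydopamine. Toxicants were dissolved in DMSO, and control cells received DMSO to match. The design text counts the libraries as biological samples in triplicate of 1 cell line. Since nothing says that they came from separate differentiations, the p-values measure only the spread between these samples, which may be technical.

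Chaperones bind proteins that are unfolded or partly folded and keep them from aggregating. HSP70 proteins do so in cycles of ATP hydrolysis: J proteins (the DNAJ families) deliver clients and start hydrolysis, and the HSP110 and BAG proteins, as nucleotide exchange factors, let the client go again. HSP90 acts on later folding intermediates, the CCT ring folds actin and tubulin among others, HSPD1 with its lid HSPE1 is the folding chamber of the mitochondrial matrix, and small heat shock proteins hold unfolded proteins without ATP. When unfolded protein accumulates in the cytosol, heat shock factor 1 (HSF1) binds inverted repeats of GAA, the heat shock element, and raises transcription of part of this set, of which HSPA6, HSPH1, DNAJB1 and BAG3 are standard markers. HSPA6 is a strictly inducible HSP70 of human cells, nearly silent without stress, whereas HSPA8 is the constitutive one and abundant in neurons.

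The heat shock element is the sequence through which HSF1 acts on part of this set. It was therefore searched for in the RefSeq promoters (GRCh38.p14, 250 bases before to 50 after the start) of the 63 members that had an entry. The letters searched were GAANNTTC and TTCNNGAA, each of which reads the same on both strands, and a longer form with 3 alternating units. In the lines that follow, capitals mark matched units. The first 4 stretches lie before the start and outside annotated exons.
HSPA6, chr1:161524444-161524500, plus strand, 74 bases before the start: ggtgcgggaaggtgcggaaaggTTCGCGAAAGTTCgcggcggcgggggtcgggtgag
HSPA6, chr1:161524338-161524389, plus strand, 180 bases before the start: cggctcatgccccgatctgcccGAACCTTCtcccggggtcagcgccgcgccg
HSPA1B, chr6:31827611-31827662, plus strand, 105 bases before the start: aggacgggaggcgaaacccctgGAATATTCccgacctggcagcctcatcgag
HSPB1, chr7:76302469-76302520, plus strand, 182 bases before the start: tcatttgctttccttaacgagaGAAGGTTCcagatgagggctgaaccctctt
The remaining stretches overlap an exon in at least 1 annotated transcript or lie at the start, and only the element is shown.
HSPD1, chr2:197500062-197500090, minus strand: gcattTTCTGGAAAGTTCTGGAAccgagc
HSPA8, chr11:123062346-123062374, minus strand: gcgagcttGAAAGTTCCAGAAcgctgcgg
HSPA8, chr11:123062171-123062199, minus strand: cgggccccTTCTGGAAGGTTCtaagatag
HSP90AA1, chr14:102087112-102087140, minus strand: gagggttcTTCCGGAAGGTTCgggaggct
DNAJB1, chr19:14517918-14517947, minus strand: ccgctcggccaGAAGCTTCtagcatgtctg

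The 2-unit form was present in 17 of the 63 member promoters (27%) and in 4737 of all 35116 promoters (13.5%). The 3-unit form was present in 6 of 63 (9.52%), against 172 of all promoters (0.49%). Those 6 were HSPA6, HSPA8, HSPD1, HSP90AA1, DNAJA1 and DNAJB6, and in HSPD1 the run continued into a further unit. The TATA box letters TATAAA occurred in 6 of 63 members (9.52%) and in 7.33% of all promoters. HSPH1 and BAG3 held no match in this window. A match describes letters and not binding, which was not measured.

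Library totals ranged from 9.69 to 46.9 megareads counted to genes. Values are given as CPM, the reads of a gene per megaread of the library total after scaling by the trimmed mean of M values (TMM), with the SD over 3 libraries, and all members were tested in edgeR (quasi-likelihood F test), with p-values adjusted by Benjamini-Hochberg across the 18852 genes tested. As a check of the cell type, 6 neuron markers were all detected and summed to between 4398 and 5932 CPM over the 24 libraries. Of 8 dopaminergic neuron markers, the dopamine transporter gene SLC6A3 had 697, 578 and 632 CPM in the DMSO libraries, but FOXA2 had 0 reads in every library, and LMX1B had 3 reads over the DMSO libraries.

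In DMSO, the members gave between 1.329% and 1.378% of all reads. Per length of merged exon, HSPA8 was the most abundant at 543.5 CPM per kilobase, followed by the constitutive cytosolic HSP90 gene HSP90AB1 at 517.7, the J protein gene DNAJA1 at 198.9 and the CCT subunit genes CCT3 at 166.6 and CCT2 at 159.8. HSPA6 was at the bottom with 0.01247 CPM per kilobase. Between them, on the same scale, stood the HSP110 gene HSPH1 at 18.89, DNAJB1 at 40.48 and BAG3 at 5.604. The members' share of all reads lay wholly below that in DMSO in MS275 (1.105% to 1.137%), rotenone (1.269% to 1.276%) and MPP (1.273% to 1.289%), and wholly above it in ziram (1.46% to 1.634%) and methylmercury (1.482% to 1.531%). In paraquat (1.32% to 1.348%) and 6-HD (1.352% to 1.432%) it overlapped the DMSO range. These are shares of library totals without TMM scaling. In MPP the totals held 4.9% to 7.18% of reads from the mitochondrial genome, against 1.35% to 1.87% in DMSO. After TMM scaling, the median log2 fold change over the members in MPP was -0.0008, so the lower share there does not describe a fall of the members.

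**Figure D1:**
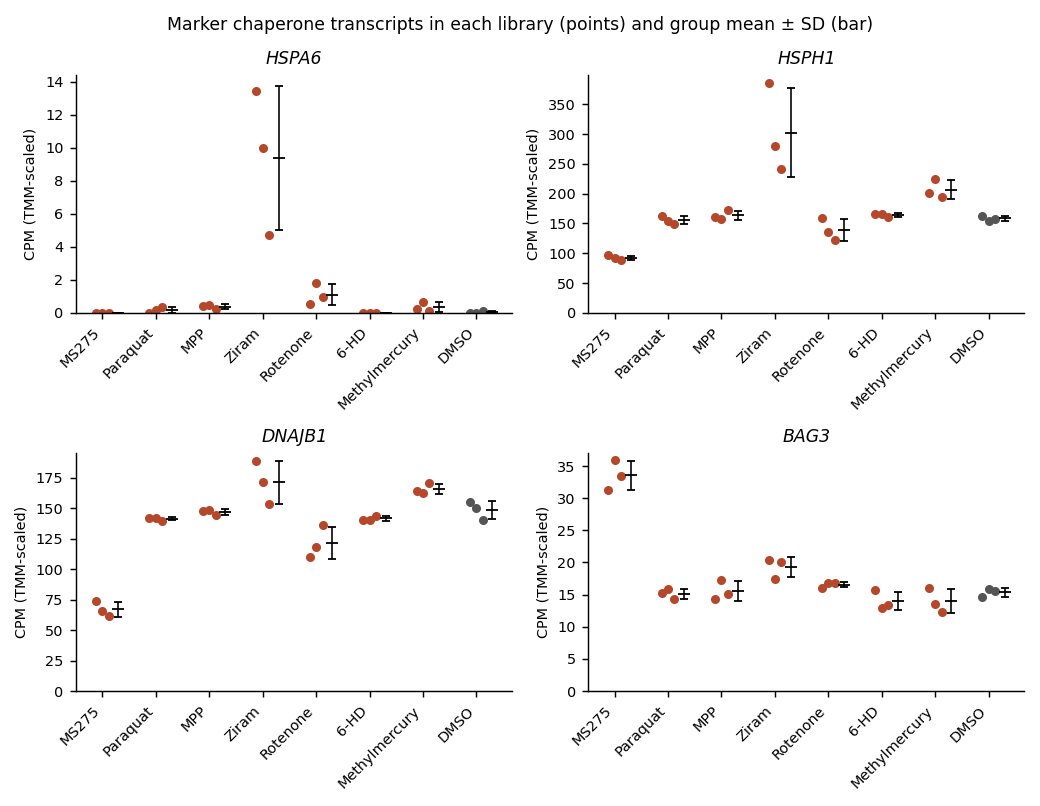
Levels of the inducible HSP70 gene HSPA6, the HSP110 gene HSPH1, the J protein gene DNAJB1 and the exchange factor gene BAG3, in CPM on linear axes, for the 3 libraries (points) of each of the 7 toxicant groups and of DMSO, with the mean and SD of each group. HSPA6 reached 4.73 to 13.4 CPM in ziram, BAG3 stood at 31.3 to 35.9 CPM in MS275, and HSPH1 and DNAJB1 were at their lowest in MS275.

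The comparison of ziram with DMSO asked which transcripts the fungicide altered at 2 µM. Chaperone transcripts rose and none was called lower: 7 of 72 members were higher (9.72%) and 0 lower, against 0.408% of all genes tested called higher and 0.122% called lower. They were HSPA6, the small heat shock protein gene HSPB1, the HSP110 genes HSPH1 and HSPA4L, the inducible HSP70 gene HSPA1B, the mitochondrial HSPD1 and the cytosolic HSP90AB1. By class they were 2 of 8 HSP70, 2 of 3 HSP110, 1 of 2 HSP90, 1 of 2 mitochondrial chaperonin and 1 of 6 small heat shock protein genes. None of the DNAJ, CCT or BAG genes passed. The median log2 fold change over all 72 members was 0.02, and over all genes tested 0.01.

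HSPA6 (chromosome 1, 161524540 to 161526910, GRCh38, plus strand) had 411, 483 and 147 reads in the 3 ziram libraries, against 0, 0 and 3 reads in the DMSO libraries. In CPM this was 13.4, 9.99 and 4.73 in ziram, and 0, 0 and 0.0887 in DMSO. Every ziram library was far above every DMSO library, although the ziram libraries differed among themselves by more than 2-fold. Scaled for depth, the summed reads in ziram were 228.9 times those in DMSO, with an exact 95% interval of 78.1 to 1112 that covers counting error only (edgeR adjusted p = 2.48e-07). The near-identical HSPA7 shares 45.5% of the 50-base words of HSPA6, so reads could be split between them. HSPA7 held 13 reads in ziram and 0 in DMSO.

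HSPH1, whose product releases ADP from HSP70, had 385, 281 and 242 CPM in ziram and 163, 154 and 158 CPM in DMSO. The groups did not overlap, and the difference was 0.93 on the log2 scale (SE 0.11, edgeR adjusted p = 2.08e-06). HSPB1, the ATP-independent holdase also called HSP27, had 27.5, 21.2 and 21.9 CPM in ziram and 10.7, 13 and 11.1 CPM in DMSO, a difference of 1.01 (SE 0.155, edgeR adjusted p = 0.000243). Its groups also stood apart. HSPA4L, a further HSP110 gene, had 102, 72.6 and 67.5 CPM in ziram against 51.4, 46.8 and 44.3 CPM in DMSO (0.76, SE 0.136, edgeR adjusted p = 0.00197). HSPA1B had 23, 17.2 and 17 CPM in ziram against 9.96, 12.1 and 11.3 CPM in DMSO (0.77, SE 0.161, edgeR adjusted p = 0.0125). For all of these genes ziram replicate 1 was the highest library. HSPA1B shares 71.4% of its 50-base words with HSPA1A, and the 40 reads assigned to HSPA1A fell mostly in ziram, with 29 reads there and 0 in DMSO. A further gene, AL671762.1, overlaps 36.5% of the exons of HSPA1B on the same strand, so its values are uncertain to that extent.

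The abundant members moved by smaller factors. HSPD1, the mitochondrial HSP60, averaged 530 ± 63.1 CPM in ziram and 382 ± 12.5 CPM in DMSO (SD, n = 3 each), a log2 difference of 0.47 (SE 0.0771, edgeR adjusted p = 0.000643). HSP90AB1 averaged 1928 ± 197 CPM in ziram and 1543 ± 121 CPM in DMSO, a log2 difference of 0.32 (SE 0.0723, edgeR adjusted p = 0.026). The inducible HSP90AA1 had 1197, 888 and 829 CPM in ziram, against 645, 608 and 622 CPM in DMSO. Its groups did not overlap, but it did not pass (log2 difference 0.64, edgeR adjusted p = 0.106). It did pass without the expression filter (edgeR adjusted p = 4.42e-12) and with the ziram and DMSO libraries fitted alone (4.57e-05), and the cause was not tested. HSPE1, the lid of HSPD1, averaged 32.7 CPM in ziram and 24.2 CPM in DMSO (edgeR adjusted p = 0.591, and 0.0103 with these 2 groups fitted alone). HSPE1 and HSPD1 lie head to head, and the first exons overlap on opposite strands, so that some reads could belong to either gene.

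Among the other standard members, DNAJB1 averaged 171 ± 17.7 CPM in ziram and 149 ± 7.5 CPM in DMSO (edgeR adjusted p = 0.594), and BAG3 19.3 ± 1.62 CPM in ziram and 15.4 ± 0.717 CPM in DMSO (edgeR adjusted p = 0.466). HSPA8 averaged 3101 CPM in ziram and 2635 CPM in DMSO, with no overlap (log2 difference 0.23, edgeR adjusted p = 0.111, but 0.0108 with the 2 groups fitted alone and 0.018 with library totals in place of TMM). Of the markers, HSPA6 and HSPH1 thus passed in ziram and DNAJB1 and BAG3 did not. Outside the members, FKBP4, an HSP90 co-chaperone, rose to 206 CPM in ziram, against 135 CPM in DMSO (0.61, edgeR adjusted p = 0.000295), the only call among 14 cytosolic co-chaperones. No heat shock factor, alpha crystallin, prefoldin subunit, mitochondrial partner or endoplasmic reticulum chaperone of the lists passed. The precursor or cycling cell markers summed to 291 to 307 CPM in ziram, against 251 to 264 CPM in DMSO. Of these 5 markers 0 were called, and their part in the result was not tested. Of the 7 members that rose, 4 held the 2-unit element in the promoter window (57.1%) and 2 the 3-unit form (28.6%). The shares over all 63 members with an entry were 27% and 9.52%. Members that fell held these forms too, in 3 and 2 of 4 promoters for rotenone and in 8 and 3 of 32 for MS275. The part of the element in these changes was not tested.

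The count of 7 depended on 1 library: without ziram replicate 1 it was 4, with an edgeR adjusted p of 0.0786 for HSPA4L, 0.29 for HSPA1B and 0.518 for HSP90AB1. Calls for HSPA1B also ended without DMSO replicate 1, 2 or 3 (edgeR adjusted p = 0.129, 0.0521 and 0.0709), and for HSP90AB1 without DMSO replicate 2 or 3 or ziram replicate 2 (0.229, 0.212 and 0.0694).

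**Figure D2:**
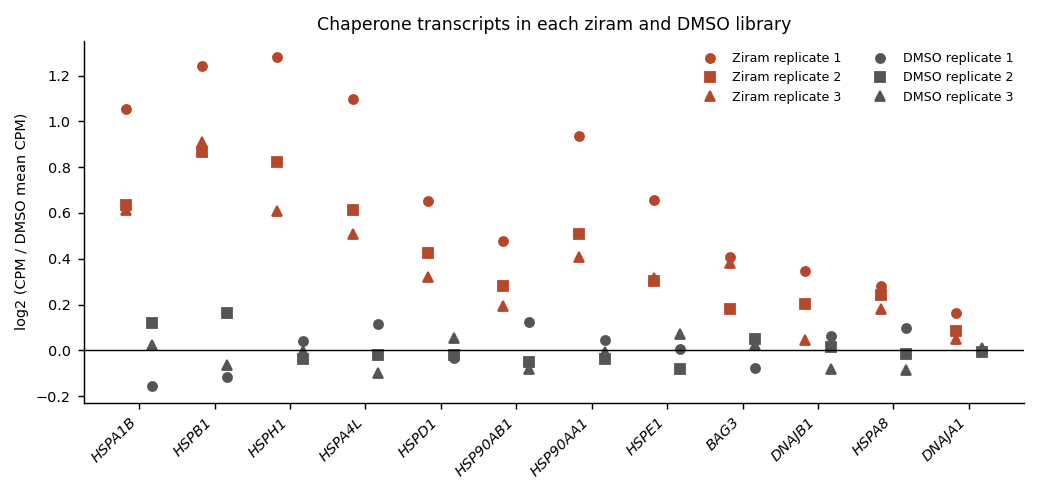
Level of 12 chaperone transcripts in each ziram and each DMSO library, as log2 of the ratio of its CPM to the DMSO mean, with ziram left of DMSO for each gene and the symbol giving the replicate. The highest point of each gene is ziram replicate 1, which reached 1.28 for HSPH1 and 1.24 for HSPB1, and all ziram points lie above 0.

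Under MS275 more chaperone transcripts fell than rose. Of 72 members, 35 fell (48.6%) and 11 rose (15.3%), whereas of all genes tested 23% were called lower and 20.1% higher. The median log2 fold change over the members was -0.30, against 0.04 over all genes tested. At least 2-fold lower were DNAJC2, DNAJC21, DNAJB1, BAG1, DNAJC25 and DNAJC13, and at least 2-fold higher were BAG3, HSPA2, HSPA12B and the scarce HSPB7, HSPB8 and DNAJB8. DNAJB8 passed the expression filter only through the MS275 libraries, so its call is no support for the count of 11. In bulk RNA, fewer cells of a type and less RNA per cell cannot be told apart. Markers of other cells moved with this group: 4 astrocyte markers summed to 8.22 to 11.1 CPM in MS275, against 1.49 to 2.99 CPM in DMSO, 5 precursor or cycling cell markers to 331 to 370 CPM in MS275, against 251 to 264 CPM in DMSO, and 4 oligodendrocyte markers to 144 to 168 CPM in MS275, against 127 to 141 CPM in DMSO, with MOG at 0 reads in both groups. Of these, all 3 astrocyte markers tested rose, 3 of 5 precursor markers and 2 of 3 oligodendrocyte markers tested. The 8 dopaminergic markers summed to 1031 to 1243 CPM in MS275, against 638 to 759 CPM in DMSO. Most of that sum in DMSO was SLC6A3 alone. Of the 7 dopaminergic markers tested, 5 rose and 0 fell. The 6 neuron markers summed to 4398 to 5515 CPM in MS275, against 4796 to 5932 CPM in DMSO, with 1 higher and 0 lower. The part of all these markers in the result was not tested.

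HSP70 genes split in MS275, with 4 lower and 3 higher of 8, against 23% lower and 20.1% higher of all genes tested. HSPA8 had 2025, 1908 and 1775 CPM in MS275, against 2818, 2608 and 2480 CPM in DMSO, a log2 difference of -0.47 (SE 0.064, edgeR adjusted p = 5.97e-07). All MS275 libraries were below all DMSO libraries. The mitochondrial HSP70 gene HSPA9 (mortalin) fell to 349 ± 22.4 CPM in MS275, against 470 ± 4.35 CPM in DMSO (-0.43, edgeR adjusted p = 3.52e-06), and the ribosome-associated HSPA14 to 33.7 ± 2.07 CPM in MS275, against 52.4 ± 4.45 CPM in DMSO (-0.64, edgeR adjusted p = 8.45e-07). HSPA1B averaged 7.79 ± 1.46 CPM in MS275 and 11.1 ± 1.07 CPM in DMSO (-0.50, edgeR adjusted p = 0.0158), a call that ended without DMSO replicate 2 or 3 or MS275 replicate 3 (edgeR adjusted p = 0.0852, 0.0532 and 0.0872). HSPA6 had 0 reads in all 3 MS275 libraries, which allows up to 0.044 CPM over the group, and no fold is given because DMSO held only 3 reads.

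The HSP70 genes that rose in MS275 were HSPA2 and the distant family members HSPA12A and HSPA12B. HSPA2, best known from the testis, had 23.5, 22.7 and 20.3 CPM in MS275, against 6.33, 6.87 and 6.86 CPM in DMSO, a log2 difference of 1.73 (SE 0.171, edgeR adjusted p = 2.18e-09). HSPA12B had 8.68, 7.46 and 5.62 CPM in MS275 and 1.21, 2.63 and 2.57 CPM in DMSO (1.72, SE 0.318, edgeR adjusted p = 5.35e-05). The groups stood apart for both genes. HSPA12A rose to 80.7 ± 3.39 CPM in MS275, against 48.4 ± 1.18 CPM in DMSO (0.74, edgeR adjusted p = 2.57e-06).

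The J proteins, which supply HSP70 with clients, were lower more often than higher in MS275. Of the DNAJC genes 11 of 24 fell and 0 rose, and of the DNAJA genes 3 of 4 fell. The call of DNAJC11 was lost in 11 of 12 alternative fits and that of DNAJC8 in 9. DNAJC15, not called here, was higher with DESeq2 (adjusted p = 0.039) and with relative log expression factors (edgeR adjusted p = 0.049). Of the DNAJB genes 4 of 9 fell and 3 rose. Those that rose include DNAJB8, which could enter the test only by being high in MS275 and is no support. The shares over all genes tested were 23% lower and 20.1% higher. DNAJB1, the main HSP70 partner induced by heat, had 73.7, 65.4 and 61.7 CPM in MS275, against 155, 150 and 141 CPM in DMSO (-1.15, SE 0.0864, edgeR adjusted p = 1.09e-11). Each MS275 library held fewer DNAJB1 reads per megaread than any other library of the series. DNAJC2, a J protein of the ribosome, had 9.59, 9.11 and 9.59 CPM in MS275 and 25.7, 22.7 and 26.1 CPM in DMSO (-1.40, SE 0.133, edgeR adjusted p = 9.99e-10). DNAJC21, which takes part in ribosome assembly, had 10.9, 10.6 and 15.2 CPM in MS275 and 30.9, 25.8 and 28.2 CPM in DMSO (-1.22, edgeR adjusted p = 2.59e-08).

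Further down, DNAJC25 averaged 3.66 ± 0.393 CPM in MS275 and 7.87 ± 0.612 CPM in DMSO (-1.10), and DNAJC13, a J protein of endosomes, 29.4 ± 3.89 CPM in MS275 and 58.9 ± 3.87 CPM in DMSO (-1.01). DNAJB14 and DNAJB12, J proteins anchored in the endoplasmic reticulum membrane that face the cytosol, fell by 0.93 and 0.85 on the log2 scale, to 42.5 ± 8.52 CPM and 17.7 ± 2.4 CPM in MS275, against 80.7 ± 4.38 CPM and 32.0 ± 0.821 CPM in DMSO. The largest edgeR adjusted p of these 4 genes was 1.36e-05, and none of their groups overlapped. DNAJC12, the co-chaperone of tyrosine hydroxylase and related hydroxylases, averaged 58.4 ± 3.98 CPM in MS275 and 88.5 ± 6.78 CPM in DMSO (-0.60, edgeR adjusted p = 1.58e-05). DNAJA1 fell by 0.37 on the log2 scale (edgeR adjusted p = 0.000112).

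DNAJB4, DNAJB6 and the scarce DNAJB8 were the only J protein genes called higher in MS275. DNAJB6, which suppresses polyglutamine aggregation, averaged 171 ± 5.25 CPM in MS275 and 139 ± 5.47 CPM in DMSO (0.30, edgeR adjusted p = 0.00333). DNAJB4 averaged 26.2 ± 2.46 CPM in MS275 and 19.1 ± 1.84 CPM in DMSO (0.45, edgeR adjusted p = 0.00921), which did not hold without DMSO replicate 1 (edgeR adjusted p = 0.0591). DNAJB8, scarce in all groups, had 105 reads in MS275 and 4 in DMSO, a ratio of 27.62 after scaling for depth (exact 95% counting interval 10.47 to 103.2). It passed the expression filter only through the MS275 libraries, so it could enter the test only by being high there, and its call among the 11 members higher is no support.

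Exchange factors of HSP70 moved in both directions. HSPH1 had 96.4, 91.5 and 88.4 CPM in MS275, against 163, 154 and 158 CPM in DMSO (-0.78, SE 0.111, edgeR adjusted p = 1.18e-06), with every MS275 library below the others of the series. BAG1 had 43.1, 39.2 and 37.8 CPM in MS275 and 92.2, 83.4 and 83.5 CPM in DMSO (-1.11, SE 0.0925, edgeR adjusted p = 8.32e-11). BAG4 fell by 0.60 and BAG5 by 0.40 on the log2 scale. BAG2 was called lower (-0.35, edgeR adjusted p = 0.0348), but not without DMSO replicate 2 or 3 or MS275 replicate 1 or 2, with library totals only, with relative log expression factors or with DESeq2 (largest adjusted p 0.191). BAG3, which links HSP70 to autophagy, was the 1 BAG gene that rose, with 31.3, 35.9 and 33.5 CPM in MS275 and 14.6, 16 and 15.6 CPM in DMSO (1.12, SE 0.121, edgeR adjusted p = 9.74e-09). HSPA4L averaged 59.8 ± 5.5 CPM in MS275 and 47.5 ± 3.57 CPM in DMSO (0.33, edgeR adjusted p = 0.0487), which did not hold without DMSO replicate 1, 2 or 3 (edgeR adjusted p = 0.0516, 0.0961 and 0.142) or MS275 replicate 2 or 3 (0.0761 and 0.172).

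Of the CCT genes 6 of 8 fell, against 23% of all genes tested. They fell by 0.22 (CCT4) to 0.50 (CCT5) on the log2 scale, and CCT7 and CCT6B did not pass. CCT5 averaged 354 ± 6.82 CPM in MS275 and 500.2 ± 17.8 CPM in DMSO (edgeR adjusted p = 7.55e-07). HSPD1 had 296, 279 and 286 CPM in MS275 and 373, 377 and 397 CPM in DMSO (-0.42, edgeR adjusted p = 5.92e-05), and HSPE1 averaged 18.4 CPM in MS275 and 24.2 CPM in DMSO (edgeR adjusted p = 0.0855). Neither HSP90 gene passed: HSP90AB1 differed by -0.04 on the log2 scale (95% interval -0.19 to 0.11) and HSP90AA1 by 0.07 (-0.28 to 0.42). The small heat shock proteins had 3 of 6 members higher and none lower, against 20.1% higher and 23% lower of all genes tested. HSPB1 averaged 15.6 ± 3.3 CPM in MS275 and 11.6 ± 1.24 CPM in DMSO (0.44, edgeR adjusted p = 0.0256), with overlapping groups, and did not pass without DMSO replicate 1 or 3 or MS275 replicate 1 or 2 (edgeR adjusted p = 0.097, 0.082, 0.116 and 0.125). HSPB7 and HSPB8, scarce in both groups, rose by 2.44 and 2.55 on the log2 scale (edgeR adjusted p = 0.00781 and 0.0061).

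Partner genes outside the members were also counted in MS275, where 23% of all genes tested were called lower and 20.1% higher. Of 14 cytosolic co-chaperones 7 fell and 1 rose, led by the HSP90 activator AHSA1 at 66.5 CPM in MS275 and 134 CPM in DMSO (edgeR adjusted p = 1.52e-10), and with FKBP5 higher (0.41, edgeR adjusted p = 0.0135). Of 6 prefoldin subunits, which hand clients to CCT, 4 fell and 0 rose. Of 10 mitochondrial partners and proteases 6 fell and 0 rose, among them AFG3L2 (-0.70) and YME1L1 (-0.54). The luminal chaperones of the endoplasmic reticulum divided evenly, with 4 of 10 higher and 4 lower. Of the heat shock factors, HSF1 did not pass (edgeR adjusted p = 0.916) and HSF2 fell by 0.33 on the log2 scale (edgeR adjusted p = 0.00311).

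**Figure D3:**
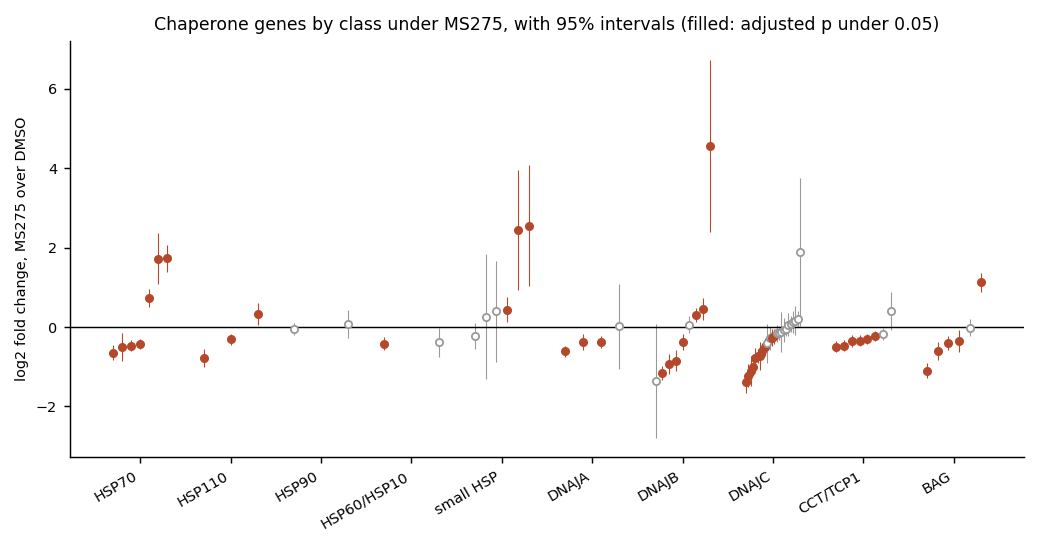
Log2 fold change of each member in MS275 over DMSO, by class, with 95% intervals of the fit. Filled points passed an edgeR adjusted p of 0.05, open points did not, and HSPA6 is not drawn because both groups were at or under 3 reads. The DNAJC and CCT classes have no filled point above 0, the small heat shock protein class has none below 0, and DNAJB8 is highest at 4.57.

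Rotenone at 1 µM raised 2 members and lowered 5 (2.78% and 6.94% of 72), against 2.76% of all genes tested called higher and 2.76% called lower. HSPA6 had 13, 17 and 12 reads in rotenone and 0, 0 and 3 in DMSO, or 0.526, 1.78 and 0.984 CPM against 0, 0 and 0.0887 CPM. All rotenone libraries were above all DMSO libraries, with a depth-scaled ratio of 21.9 (exact 95% counting interval 6.998 to 110.4, edgeR adjusted p = 0.0028). The level was a fraction of that in ziram, at 1.10 ± 0.637 CPM in rotenone and 9.38 ± 4.38 CPM in ziram, at different doses. With the rotenone and DMSO libraries fitted alone the edgeR adjusted p was 0.0532. BAG6, which guides tail-anchored proteins to the endoplasmic reticulum, averaged 367 ± 53.6 CPM in rotenone and 288 ± 12.7 CPM in DMSO (0.35, edgeR adjusted p = 0.0456), and no omission of a library other than rotenone replicate 1 kept that call (edgeR adjusted p = 0.106 to 0.191).

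The members that fell in rotenone included the most abundant. HSPA8 had 1983, 2098 and 2081 CPM in rotenone, against 2818, 2608 and 2480 CPM in DMSO (-0.36, SE 0.064, edgeR adjusted p = 0.000565). DNAJA1, a farnesylated J protein, had 465, 390 and 402 CPM in rotenone and 542, 540 and 547 CPM in DMSO (-0.37, SE 0.0735, edgeR adjusted p = 0.00178). For neither gene did the groups overlap. HSPA12A fell to 33.5 ± 4.22 CPM in rotenone, against 48.4 ± 1.18 CPM in DMSO (-0.54, edgeR adjusted p = 0.00354), and DNAJC22 to 14.4 ± 2.88 CPM in rotenone, against 25.4 ± 1.74 CPM in DMSO (-0.80, edgeR adjusted p = 0.000771). DNAJB1 averaged 121 ± 13.2 CPM in rotenone and 149 ± 7.5 CPM in DMSO (-0.29, edgeR adjusted p = 0.0377), and the call ended under 5 of the 6 omissions of a library, namely each DMSO library and rotenone replicates 1 and 2 (edgeR adjusted p = 0.0553 to 0.137). With the rotenone and DMSO libraries fitted alone, the edgeR adjusted p was 0.204 for DNAJB1, 0.0616 for HSPA12A and 0.0633 for DNAJA1. HSF1 averaged 68.3 CPM in rotenone and 46.4 CPM in DMSO (0.55, edgeR adjusted p = 0.0121). The precursor or cycling cell markers summed to 337 to 371 CPM in rotenone, against 251 to 264 CPM in DMSO. The dopaminergic markers summed to 879 to 1226 CPM in rotenone, against 638 to 759 CPM in DMSO, where most of the sum was SLC6A3. Only 1 of 5 precursor markers and 1 of 7 dopaminergic markers tested rose, and 0 fell. The part of these markers was not tested. The count of members higher was 5 without rotenone replicate 1, with DNAJB2, HSPB1 and HSP90AB1 added and BAG6 kept, and 1 without any other single library of the 2 groups.

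MPP at 5 µM gave 3 members higher and 2 lower (4.17% and 2.78%), against 5.77% and 5.02% of all genes tested. DNAJB2, a J protein enriched in neurons that steers clients to the proteasome, had 111, 106 and 96.3 CPM in MPP, against 77.4, 82.3 and 80.5 CPM in DMSO (0.38, SE 0.0995, edgeR adjusted p = 0.0108). DNAJC13 had 72.2, 73.0 and 80.5 CPM in MPP, against 54.5, 61.9 and 60.1 CPM in DMSO (0.35, edgeR adjusted p = 0.0303). HSPA6 had 13, 13 and 4 reads in MPP and 0, 0 and 3 in DMSO (depth-scaled ratio 9.435, exact 95% counting interval 2.934 to 48.31, edgeR adjusted p = 0.0379). For these 3 genes the groups did not overlap, yet each call ended when some libraries were left out. HSPA6 did not pass without DMSO replicate 1 or 2 or MPP replicate 1 or 2 (edgeR adjusted p = 0.111, 0.153, 0.0912 and 0.114), DNAJB2 without DMSO replicate 1 or MPP replicate 1 (0.06 and 0.0665), and DNAJC13 without any 1 of the 6 libraries (0.0521 to 0.155). With library totals in place of TMM, DNAJB2 and DNAJC13 did not pass either (edgeR adjusted p = 0.0561 and 0.137). In the fit of the MPP and DMSO libraries alone, HSPA6 failed the expression filter and was not tested. It thus entered the MPP comparison only because other groups were in the fit.

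Of the members lower in MPP, DNAJC22 had 11.6, 12.9 and 12.9 CPM in MPP, against 25.3, 27.1 and 23.7 CPM in DMSO (-1.02, SE 0.142, edgeR adjusted p = 9.4e-06). The groups were far apart, and DNAJC22 was called lower in rotenone as well, a comparison that shares the DMSO libraries. HSPA1B had 7.39, 7.39 and 6.54 CPM in MPP, against 9.96, 12.1 and 11.3 CPM in DMSO (-0.64, SE 0.168, edgeR adjusted p = 0.011), but not without DMSO replicate 2 or MPP replicate 3 (edgeR adjusted p = 0.0698 and 0.0543). HSF1 rose to 69.4 CPM in MPP, against 46.4 CPM in DMSO (0.58, edgeR adjusted p = 0.00362), and HSF2 rose by 0.28 (edgeR adjusted p = 0.0348). GRPEL2, an exchange factor of mitochondrial HSP70, rose by 0.76 (edgeR adjusted p = 9.62e-07), the only call among 10 mitochondrial partners. The related GRPEL1 averaged 41.0 CPM in MPP and 45.2 CPM in DMSO and did not pass. Of the luminal chaperones of the endoplasmic reticulum 7 of 10 fell and 0 rose, against 5.02% lower and 5.77% higher of all genes tested. Genes of the mitochondrial genome gave 4.9% to 7.18% of reads in MPP, against 1.35% to 1.87% in DMSO, and the precursor or cycling cell markers summed to 274 to 306 CPM in MPP, against 251 to 264 CPM in DMSO. Of the 5 precursor markers 0 were called in MPP, and of 7 dopaminergic markers tested 2 fell and 0 rose. The part of the mitochondrial genes or of any of these markers in these values was not tested.

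MPP and paraquat are both N-methylated pyridinium compounds, paraquat with a pair of such rings, and both were given at 5 µM for 6 h, so they were compared directly, as the only pair compared. Of 72 members, 3 were higher and 3 lower in MPP than in paraquat (4.17% each), against 6.04% and 4.94% of all genes tested. DNAJC22 averaged 12.5 ± 0.752 CPM in MPP, against 23.6 ± 4.09 CPM in paraquat (-0.91, SE 0.143, edgeR adjusted p = 5.95e-05). HSPA1B averaged 7.11 ± 0.489 CPM in MPP, against 11 ± 1.03 CPM in paraquat (-0.62, edgeR adjusted p = 0.0156), and DNAJC19, the J protein of the mitochondrial import motor, 23.1 ± 2.67 CPM in MPP, against 31.3 ± 1.26 CPM in paraquat (-0.44, edgeR adjusted p = 0.0122). Higher in MPP were DNAJB2 at 104 ± 7.37 CPM, against 80.7 ± 2.4 CPM in paraquat (0.37, edgeR adjusted p = 0.0137), the mitochondrial J protein gene DNAJA3 at 69.7 ± 3.06 CPM in MPP, against 55.7 ± 2.87 CPM in paraquat (0.32, edgeR adjusted p = 0.0294), and DNAJC18 at 105 ± 8.08 CPM in MPP, against 87.1 ± 6.98 CPM in paraquat (0.27, edgeR adjusted p = 0.0456). None of these 6 pairs of groups overlapped.

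The markers did not separate MPP from paraquat: the log2 difference was 0.07 for HSPH1 (95% interval -0.15 to 0.30), 0.06 for DNAJB1 (-0.12 to 0.23) and 0.04 for BAG3 (-0.21 to 0.29). HSPA6 had 13, 13 and 4 reads in MPP and 0, 8 and 6 in paraquat (edgeR adjusted p = 0.389). Of the 6 members called, DNAJC22 kept its call whichever library was left out. DNAJB2 did not pass without MPP replicate 1 or 2 (edgeR adjusted p = 0.0759 and 0.0553) or paraquat replicate 1 or 3 (0.0552 and 0.0585), DNAJA3 without the same libraries (0.11 and 0.0977 for MPP, 0.12 and 0.102 for paraquat), DNAJC18 without MPP replicate 2 or 3 (0.121 and 0.204) or paraquat replicate 1 or 2 (0.191 and 0.147), DNAJC19 without MPP replicate 2 or paraquat replicate 2 (0.116 and 0.063), and HSPA1B without MPP replicate 3 or paraquat replicate 1 (0.0715 and 0.0786). With library totals in place of TMM, none of the 3 members higher in MPP passed.

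Methylmercury at 0.5 µM had 1 member higher and 0 lower (1.39% of 72), against 0.223% and 0.0637% of all genes tested. HSPA8 had 3227, 3397 and 3415 CPM in methylmercury, against 2818, 2608 and 2480 CPM in DMSO (0.34, SE 0.064, edgeR adjusted p = 0.00949). Every methylmercury library was above every DMSO library, but the call did not hold without DMSO replicate 2 or 3 or methylmercury replicate 2 (edgeR adjusted p = 0.0861, 0.0597 and 0.104). The precursor or cycling cell markers summed to 279 to 347 CPM in methylmercury, against 251 to 264 CPM in DMSO. Of these 5 markers 1 rose and 0 fell, and their part was not tested. At an unadjusted p under 0.05 there were 21 of 72 members and 2174 of all 18852 genes tested, and the median log2 fold change of the 72 was 0.07, against -0.01 over all genes tested. HSPH1 had 201, 225 and 195 CPM in methylmercury, all above the DMSO libraries (0.38, edgeR adjusted p = 0.139), DNAJB4 averaged 26.6 CPM in methylmercury and 19.1 CPM in DMSO (0.47, edgeR adjusted p = 0.145), and HSPE1 34.0 CPM in methylmercury and 24.2 CPM in DMSO (0.48, edgeR adjusted p = 0.257). HSPA6 had 6, 10 and 4 reads in methylmercury and 0, 0 and 3 in DMSO (depth-scaled ratio 6.755, exact 95% counting interval 2.003 to 35.5, edgeR adjusted p = 0.266).

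Paraquat at 5 µM and 6-HD (hydroxydopamine) at 1 µM changed no member by the edgeR adjusted p, against 0% higher and 0% lower of all genes tested in paraquat and 0.0106% higher and 0% lower in 6-HD. At an unadjusted p under 0.05 there were 0 members in paraquat and 4 in 6-HD, against 182 and 1074 of all genes tested, and DESeq2 called 0 members in either, against 0 genes in paraquat and 7 higher and 1 lower in 6-HD over all genes. HSPH1 averaged 156 ± 6.37 CPM in paraquat, 164 ± 3.05 CPM in 6-HD and 158 ± 4.5 CPM in DMSO. DNAJB1 averaged 141 ± 1.26 CPM in paraquat, 142 ± 1.91 CPM in 6-HD and 149 ± 7.5 CPM in DMSO, and BAG3 averaged 15.2 ± 0.792 CPM in paraquat, 14 ± 1.45 CPM in 6-HD and 15.4 ± 0.717 CPM in DMSO. These groups overlapped for all 3 genes. HSPA6 had 0, 8 and 6 reads in paraquat (depth-scaled ratio to DMSO 4.267, exact 95% counting interval 1.191 to 23.16, edgeR adjusted p = 1). It had 0 reads in all 6-HD libraries, which allows up to 0.0594 CPM over the group. The precursor or cycling cell markers summed to 282 to 313 CPM in 6-HD, against 251 to 264 CPM in DMSO. Of these 5 markers 0 were called in 6-HD.

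**Figure D4:**
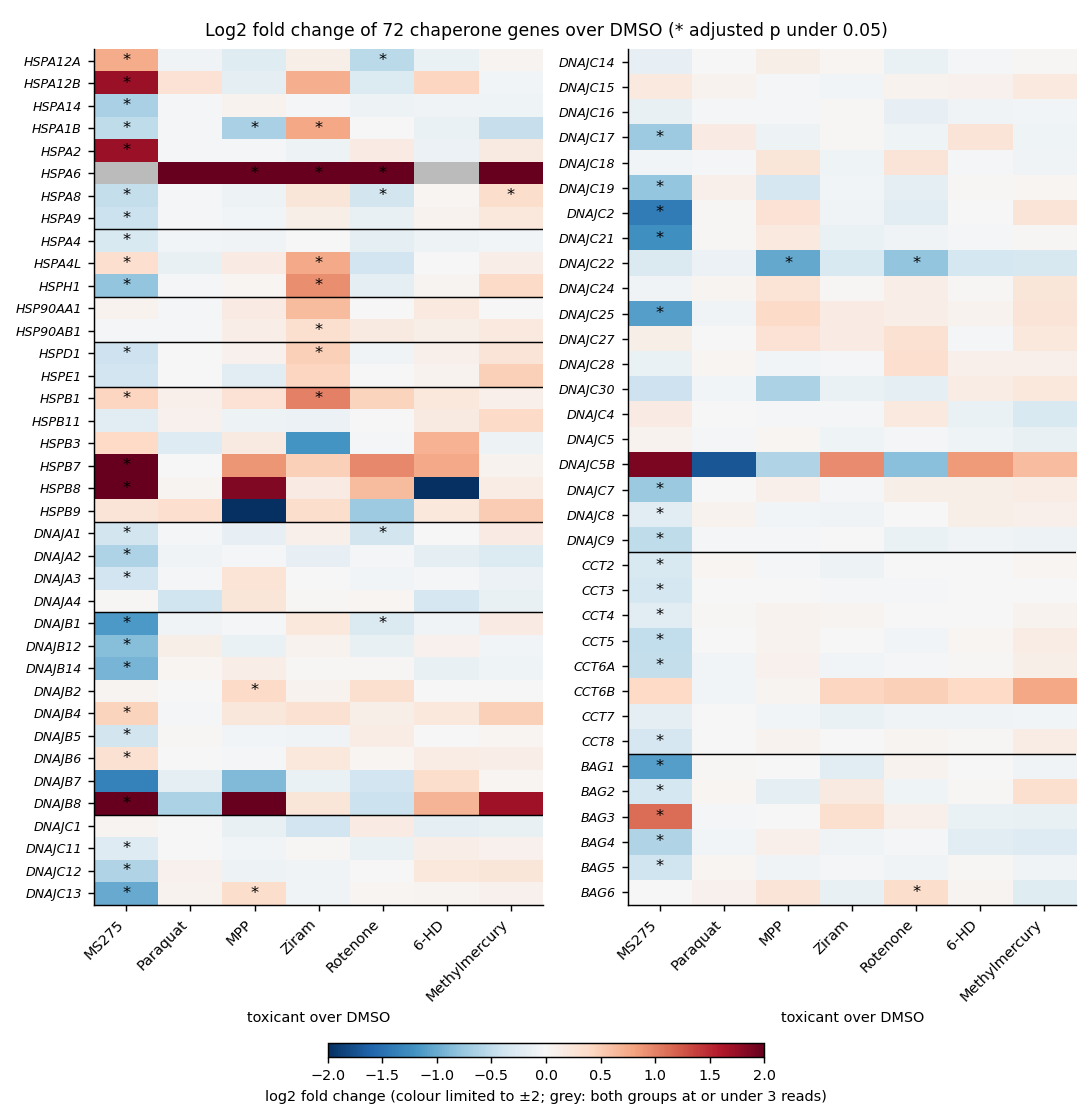
Log2 fold change over DMSO of all 72 members (rows, by class, divided by lines) in the 7 toxicant groups (columns), red for higher and blue for lower, with colours limited to 2 in either direction and asterisks for an edgeR adjusted p under 0.05. The MS275 column holds 11 asterisks on red and 35 on blue, the ziram column 7 on red, and paraquat and 6-HD none. Colours of scarce genes such as HSPA6, HSPB9, DNAJB8 and DNAJC5B rest on few reads.

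Across the toxicants, 6 members were called in opposite directions. HSPH1, HSPD1 and HSPA1B rose in ziram and fell in MS275, and HSPA1B fell in MPP also. HSPA8 rose in methylmercury and fell in MS275 and rotenone. HSPA12A rose in MS275 and fell in rotenone, and DNAJC13 rose in MPP and fell in MS275. Only HSPH1 and HSPD1 kept their calls of both directions in every alternative fit. The call of DNAJC13 in MPP was lost in 7 of 12. These comparisons share the DMSO libraries, the doses differed, and the differences between toxicants were not themselves tested. HSPA6 had most reads in ziram (1041), followed by rotenone (42), MPP (30), methylmercury (20) and paraquat (14), and 0 in MS275 and 6-HD. BAG3 was highest in MS275 and DNAJB1 and HSPH1 lowest there, so the 4 markers did not follow one order of groups.

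Likeness between members was described by Pearson's r of the group means of log2 CPM over the 8 groups, which share scaling and depth. HSPH1 was most like HSPD1 (r = 0.992), HSPE1 (0.885) and HSPA9 (0.874), and HSPA6 most like HSP90AB1 (0.848), HSPB1 (0.813) and HSP90AA1 (0.717). DNAJB1 was most like CCT4 (0.958), CCT5 (0.95) and DNAJC9 (0.948), and BAG3 most like HSPB7 (0.909), HSPA2 (0.908) and HSPA12B (0.864). The members nearest to BAG3 were thus among those higher in MS275, and those nearest to DNAJB1 among those lower there.

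**Figure D5:**
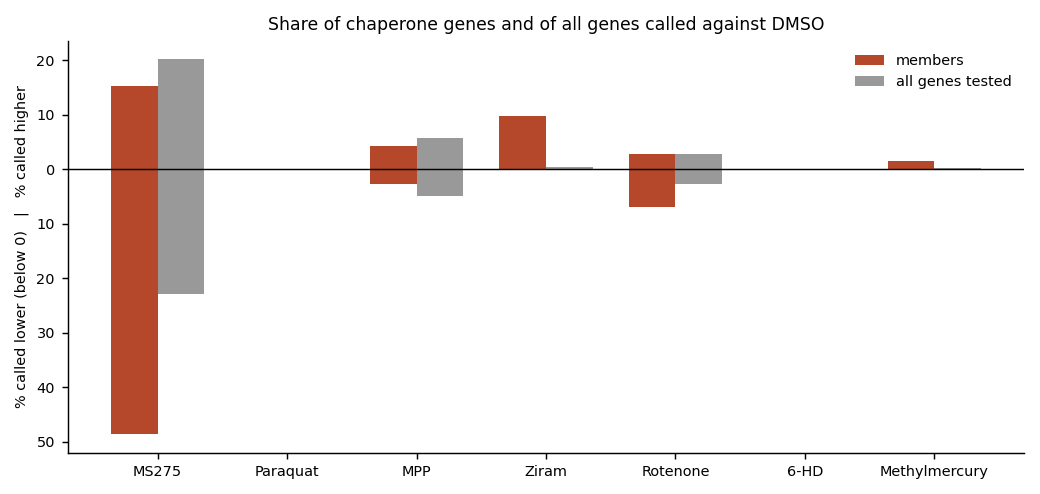
Share of the 72 members (red) and of the 18852 genes tested (grey) with an edgeR adjusted p under 0.05 against DMSO, in percent, with genes called higher above 0 and genes called lower below 0. The members' bar is the longer one for genes lower in MS275 (48.6% against 23%) and rotenone (6.94% against 2.76%) and for genes higher in ziram (9.72% against 0.408%), methylmercury (1.39% against 0.223%) and, barely, rotenone (2.78% against 2.76%). It is the shorter one for genes higher in MS275 (15.3% against 20.1%) and in both directions in MPP.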

How the data were processed

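Polyadenylated RNA was depleted of ribosomal RNA and sequenced, per the labels' protocols. The authors deposited whole-number counts per gene, and per the submitters' processing notes they used STAR, HTSeq, DESeq and GRCh38; no source used here gives versions, annotation or strand setting, so genes that overlap, or nearly match another gene, are uncertain. The deposited normalized signal was not used. Library totals ranged from 9.69 to 46.9 megareads, and no 2 libraries of a group agreed within sampling noise.

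Counts were fitted with edgeR 4.0.16 (R 4.3.3) with TMM scaling, its default expression filter and 1 coefficient per group over all 24 libraries (16 residual degrees of freedom). The fit was tested on simulated data. P-values were adjusted by Benjamini-Hochberg over 18852 genes in each of 8 comparisons at 0.05. Alternatives were relative log expression size factors, library totals only, no expression filter, a replicate block, DESeq2 1.42.0, the 2 groups alone, and each library left out. Ratios of HSPA6 and DNAJB8 reads carry exact counting intervals. Positions and exon overlaps came from GENCODE 29, and promoters from RefSeq (GRCh38.p14). A search of protein sequences for the J domain tripeptide was not run.

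Members and lists were chosen with earlier results of these data known. Named were the 4 markers, standard inducible, constitutive and mitochondrial forms, members called in opposite directions and, per comparison, up to 8 called members in each direction by size of change at a mean of at least 2 CPM; other members were named as examples of a class after their values were seen.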

Additional observations from a re-analysis of the deposited data

How the results depend on the processing

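Of 72 calls of members over the 8 comparisons, 47 held in every alternative, 25 were lost in at least 1, and 0 reversed direction. The omissions and the fits of 2 groups alone used fewer libraries, and they both lost and gained calls of members. Calls were also lost in settings that kept every library, such as DESeq2 and library totals only. The cause of these changes was not tested. In MPP against DMSO, members higher numbered 1 with library totals only and 7 with the 2 groups alone, and members lower numbered 6 with library totals, 4 with DESeq2 and 7 with the 2 groups alone. In ziram, 11 members were higher with the 2 groups alone. In rotenone, members higher numbered 4 with DESeq2 and 0 with the 2 groups alone, and members lower numbered 2 with the 2 groups alone. In methylmercury, members higher numbered 2 without the expression filter, 6 with DESeq2 and 2 with the 2 groups alone, and 1 was lower with DESeq2, which called 220 genes higher and 90 lower over all genes. In MPP against paraquat, members higher numbered 0 with library totals, 1 without the filter and 7 with the 2 groups alone, and members lower 5 with library totals and 6 with the 2 groups alone.

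With 1 library left out, members higher and lower ranged from 8 to 11 and from 31 to 33 in MS275, from 0 to 2 and from 1 to 2 in MPP, from 4 to 7 and 0 in ziram, from 1 to 5 and from 4 to 6 in rotenone, from 0 to 1 and 0 in methylmercury, and from 0 to 2 and from 2 to 3 in MPP against paraquat. They stayed at 0 in paraquat and 6-HD.

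The replicate numbers did not pair the samples: deviations of same-numbered samples from the group means correlated between -0.0647 and 0.0698. With the replicate block, 1 member was higher in rotenone in place of 2, the block moved no other count by more than 1.5 times, and among the members named with values HSPA4L in MS275 (adjusted p = 0.0545), DNAJB1 in rotenone (0.0533), BAG6 in rotenone (0.065) and DNAJC18 in MPP against paraquat (0.0529) did not pass by edgeR. Depth limits HSPA6, HSPB7, HSPB8 and DNAJB8, which rest on few reads in DMSO.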

Other observations

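Among the genes that matched by name but held fewer than 50 reads, HSPA1A had 29 reads in ziram, 7 in paraquat, 2 in 6-HD, 2 in methylmercury and 0 in DMSO, and HSPA7 had 13 reads in ziram, 2 in paraquat, 2 in methylmercury, 1 in MS275, 1 in rotenone and 0 in DMSO. These counts entered no test.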
